A study of Mus musculus with 95 samples.

Results

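The genes described here carry out protein folding, quality control and stress signalling in the endoplasmic reticulum (ER), the compartment where secreted proteins are made. Their members were chosen by gene symbol: 37 genes, all 37 present in a count table of 20638 genes, and all 37 kept by a low-count filter that kept 15766 genes. They comprise 15 chaperone and folding genes, 7 genes of ER-associated degradation, 3 genes of protein translocation into the ER, 4 genes for stress sensors and Xbp1, and 8 genes of the branch controlled by the transcription factor Atf4. Expression was measured by poly(A) RNA-seq in 95 libraries of islets isolated from the mouse pancreas, which hold its insulin- and glucagon-secreting endocrine cells. All mice belonged to the founder strains of the Diversity Outbred (DO) stock, and every library shares the high-fat, high-sugar feeding, labelled 45% fat. The labels give neither strain, sex nor age per library, so the 95 libraries formed 1 set, are called by their label numbers, and were compared along measured levels rather than between groups.

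Beta cells of the islet make large amounts of proinsulin, which folds and forms its disulfide bonds in the ER. Unfolded protein there activates a trio of sensors. Atf6 is cut to release a transcription factor, Ern1 (the kinase and nuclease IRE1) splices Xbp1 messenger RNA into its active form, and Eif2ak3 (the kinase PERK) slows translation while favouring that of Atf4. Atf6 and spliced Xbp1 are known to act on chaperone and degradation genes. Atf4 acts on genes of amino acid supply, oxidative stress and cell death, and is also engaged by kinases that sense amino acid shortage and other stresses.

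Promoter sequences are shown because the classical elements of these branches differ in their letters. The 250 bases before each RefSeq start site (GRCm38.p6) were searched on both strands for the ER stress response element, ERSE, spelled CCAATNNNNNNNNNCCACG, for ERSE-II, spelled ATTGGNCCACG, for the Xbp1-linked element UPRE, spelled TGACGTGG, and for the C/EBP-Atf response element CARE, spelled TGATGNAA, which Atf4 is known to bind. The last 5 letters of ERSE, of ERSE-II and, on the other strand, of UPRE are the same, so matches could overlap. Windows matched 32 of the 37 members. A member was counted once if any of its windows held the element, while the percentages are of single windows, so the units differ. ERSE was found for 9 members, all among the 19 folding and degradation genes with a window (Calr, Canx, Creld2, Derl3, Dnajc3, Hsp90b1, Hspa5, Pdia6 and Syvn1), for 0 of the 8 Atf4 branch genes, and in 0.1126% of all 32851 windows. ERSE-II was found for 1 member, Herpud1, and in 0.0304% of all windows. UPRE was found for 0 members and in 0.5631% of windows. CARE was found for 3 of the 8 Atf4 branch genes, Asns, Atf3 and Chac1, for Herpud1 among the folding and degradation genes, and in 3.4519% of windows. The 8 stretches below were chosen after the values were seen, as those of the genes the results turn on. They run 5′ to 3′ on the strand of the gene, and capitals mark the fixed letters of the element.
Hspa5, ERSE, chr2:34772020-34772048, plus strand: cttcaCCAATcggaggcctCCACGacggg
Hsp90b1, ERSE on each strand, chr10:86705513-86705676, minus strand: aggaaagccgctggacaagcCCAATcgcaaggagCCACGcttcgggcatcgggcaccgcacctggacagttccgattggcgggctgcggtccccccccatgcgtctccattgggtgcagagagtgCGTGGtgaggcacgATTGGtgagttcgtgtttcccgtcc
Canx, ERSE, chr11:50325780-50325838, minus strand: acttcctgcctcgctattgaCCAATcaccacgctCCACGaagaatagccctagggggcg
Syvn1, ERSE, chr19:6046512-6046570, plus strand: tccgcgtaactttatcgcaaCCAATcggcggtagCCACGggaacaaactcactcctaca
Herpud1, CARE on the reverse strand and then ERSE-II, chr8:94386297-94386407, plus strand: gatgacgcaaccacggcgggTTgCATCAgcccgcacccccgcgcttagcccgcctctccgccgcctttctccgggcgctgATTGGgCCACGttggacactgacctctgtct
Atf3, CARE on the reverse strand, chr1:191183416-191183463, minus strand: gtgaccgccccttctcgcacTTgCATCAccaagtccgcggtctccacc
Chac1, CARE on the reverse strand, chr2:119351029-119351076, plus strand: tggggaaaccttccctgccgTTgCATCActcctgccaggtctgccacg
Asns, CARE, chr6:7693214-7693243, minus strand: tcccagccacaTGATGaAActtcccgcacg
The Hspa5 and Asns stretches overlap an exon of a GENCODE transcript and were kept to 30 bases or fewer.

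Library totals ran from 16411809 to 34357253 estimated counts, with a median of 26552738. Ins2, an insulin gene, had a median of 112700 CPM, the counts per 1e6 after TMM scaling of library sizes, and Gcg, the glucagon gene, 12930, so that defining islet genes were abundant. A list of 20 genes of acinar cells, the enzyme-secreting cells around the islets, accounted for 0.276% of counts in library 25, the lowest, 6.47% in the median library and 42.7% in library 54, the highest, and for over 25% in 11 libraries. Immediate early genes, a list of 8 quickly inducible genes that includes Fos, accounted for 0.291% to 2.21%, with a median of 1.04%. The macrophage and lymphocyte lists peaked in library 97, at 0.267% and 0.174%. In such bulk samples, fewer cells of a type and less RNA per cell cannot be told apart. Nothing in the labels says that each library came from its own animal or that neighbouring numbers were processed apart. The tests thus weigh only library-to-library spread, which may be technical or lie between strains. They treat the 95 libraries as independent, although libraries of the same strain may be alike and strain is not labelled per library. The p-values may be too small where libraries of the same strain or with near numbers are alike.

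Per kilobase of exon, Hspa5 (chromosome 2, 34771970 to 34777547, GRCm38), the main ER chaperone BiP, had the highest level of the 37 genes, with a median of 344 CPM per kilobase. P4hb, a protein disulfide isomerase, followed at 302, and Hsp90b1, the chaperone GRP94, at 269.8. Trib3 (chromosome 2, 152337422 to 152344032), a pseudokinase induced by Atf4, had the lowest level, 5.54. Across the folding genes, median levels ran from 25.1 CPM per kilobase for Dnajb11 upward. The 7 degradation genes ran from 8.37 to 164.2, and the 8 Atf4 branch genes from 5.54 to 149.8.

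**Figure D1:**
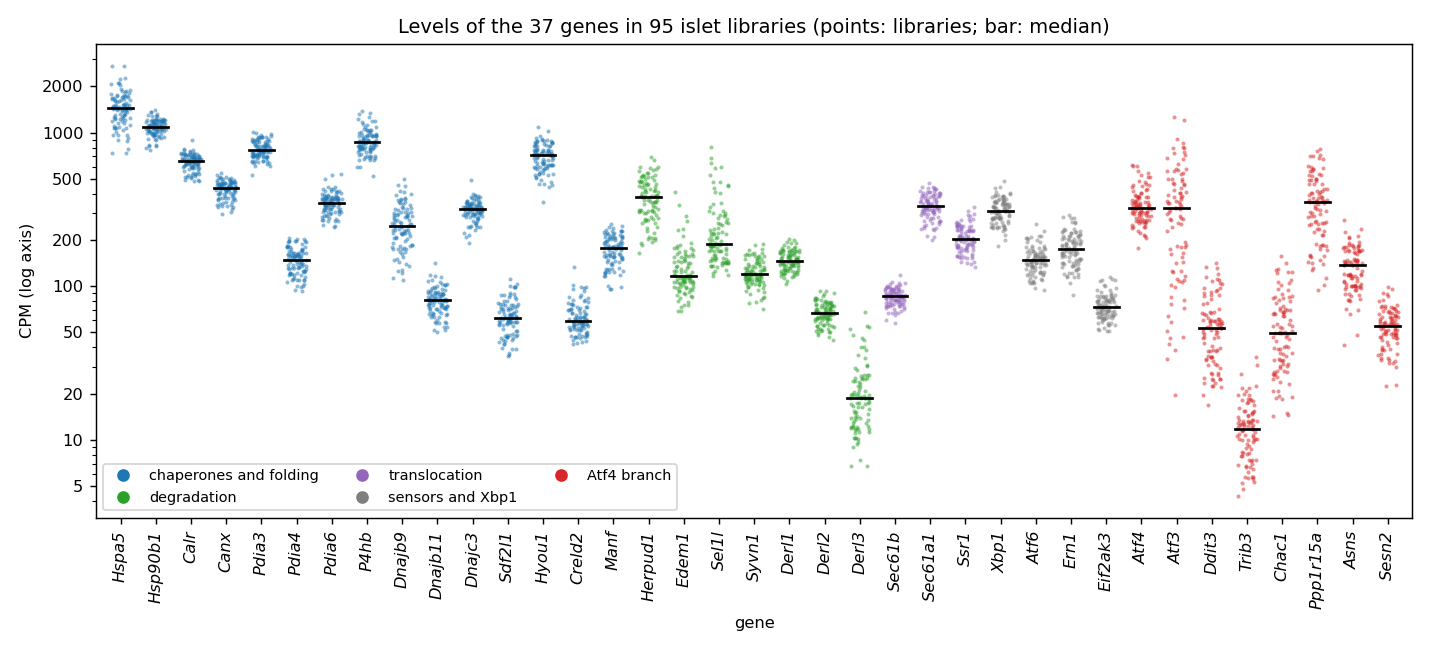
Level of each of the 37 genes in CPM (log axis) in the 95 libraries; each point is 1 library, the bar is the median, and colours give the gene's role. Atf3 has the widest spread, from 19.5 to 1258 CPM, while Hsp90b1 stays between 773 and 1404.

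Folding genes as a set varied less between libraries than Atf4 branch genes, but single genes of the 2 sets overlapped. Hspa5 had 738 CPM in its lowest library, 78, a median of 1455 and 2737 CPM in its highest, 96, a 3.71-fold range. Among the 15 folding genes the highest library exceeded the lowest by 1.815-fold (Hsp90b1) to 4.50-fold (Dnajb9). Among the 8 Atf4 branch genes it did so by 3.47-fold (Atf4) to 64.5-fold (Atf3). Atf3 (chromosome 1, 191170296 to 191218039), a stress-induced transcription factor, had 19.5 CPM in library 78, a median of 322.6 and 1258 in library 96, a 64.5-fold range. The lowest and highest libraries for Hspa5 were thus also those for Atf3.

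The biological coefficient of variation, the spread between libraries beyond counting error as edgeR estimates it, had a median of 20.1% over the folding genes, 31.6% over the degradation genes and 44.7% over the Atf4 branch, against 26% over all genes kept. It passed 50% in 2 of 37 members, Atf3 (75.4%) and Chac1 (54.5%), where 24.3% of all 15766 genes passed it. Chac1 encodes an enzyme that breaks down glutathione, and its level ran from 14.3 CPM in library 66 through a median of 49.5 to 156.8 CPM in library 30. Calr, the lectin chaperone calreticulin, had the lowest coefficient of the 37, at 13.2%. In libraries numbered above 50, 5 members and 24% of all genes passed 50%.

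**Figure D2:**
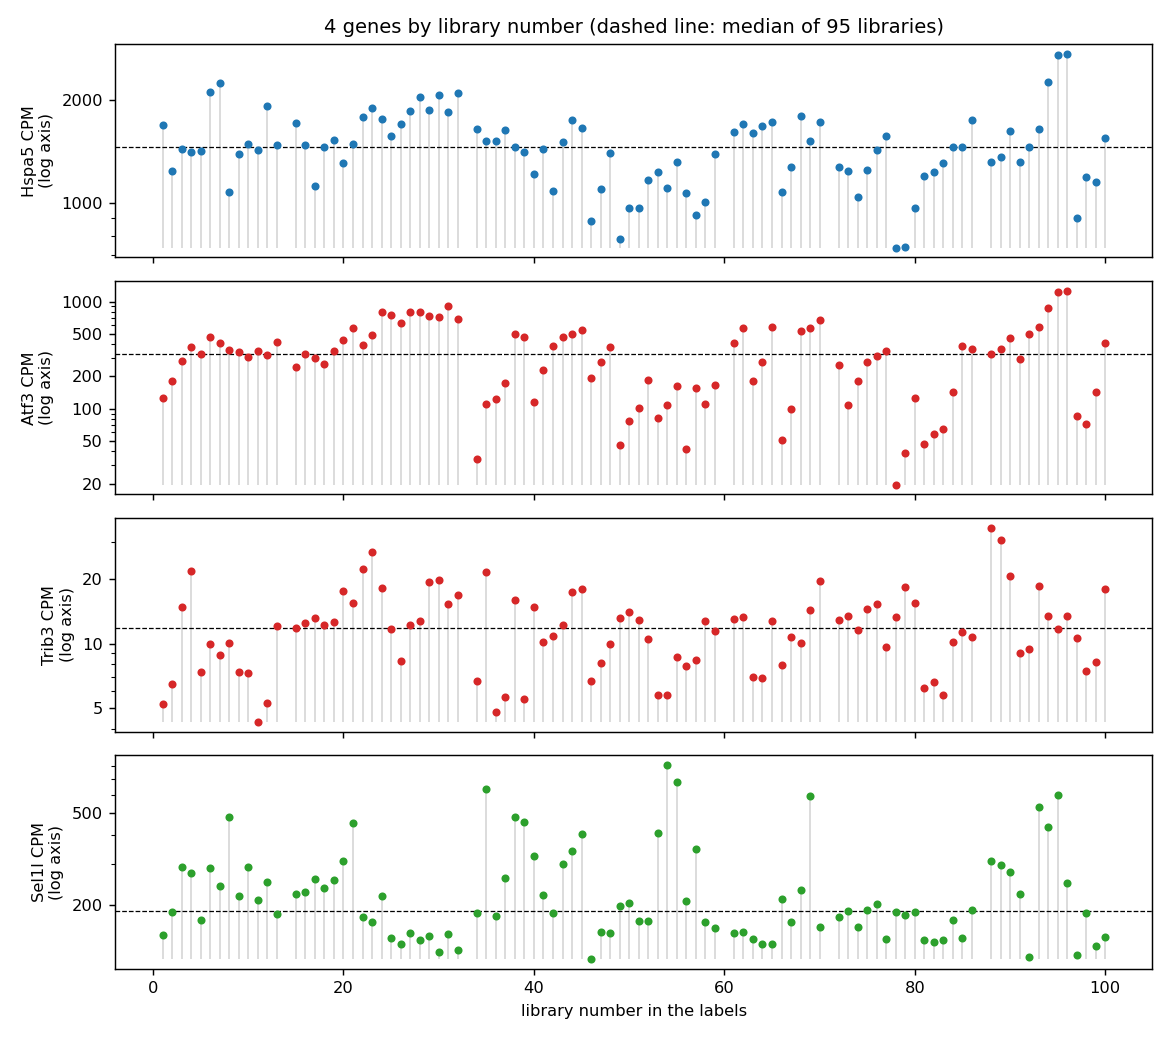
Levels of Hspa5, Atf3, Trib3 and Sel1l in CPM (log axes) against the library number in the labels; points are libraries and the dashed line is the median. Hspa5 and Atf3 are lowest in library 78 and highest in library 96, Trib3 is highest in library 88, and Sel1l is highest in library 54.

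To compare the branches, every gene was fitted in 1 model on the log2 levels of Hspa5 and Trib3 together, and its slopes are given in log2 units per standard deviation (SD) of each. Hspa5 was chosen to stand for the chaperone side and Trib3 for the Atf4 side, but the levels did not keep these sides apart. Hspa5 had a Spearman rho of 0.836 with Dnajb9 and 0.809 with Manf, but 0.420 with Hsp90b1, 0.3725 with Calr and 0.160 with Canx. With Atf4, Atf3, Ddit3 and Ppp1r15a it had 0.686 to 0.747, above the 0.361 to 0.423 of Trib3 with the same genes. An Hspa5 slope is thus not specific to the chaperone side. The SD was 0.37 log2 units for Hspa5 and 0.62 for Trib3, and the lowest estimated counts were 15475 and 81, so that Trib3 was measured less precisely. Of the 35 members other than these 2 genes, 29 had a positive Hspa5 slope and 1 a negative one in edgeR's quasi-likelihood test at an adjusted p under 0.05. Over all 15766 genes 13.8% were called positive and 17.9% negative. A positive Trib3 slope was called for 7 members and a negative one for 0, where 3.05% and 2.61% of all genes were called. The median Hspa5 slope was 0.13 over the members and -0.02 over all genes, and the median Trib3 slope was 0.0006 and 0.0005.

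Some markers of other cells were also called for the anchors in the same fit. Over all genes, 13.8% were called positive and 17.9% negative for Hspa5, and 3.05% and 2.61% for Trib3. Of 7 genes marking alpha cells, the glucagon cells, 5 had a negative Trib3 slope and 3 a negative Hspa5 slope, with medians of -0.22 and -0.17, and 0 were positive for either. Their summed share of counts ran from 0.298% to 4.43%, and all 7 were detected in every library. Negative Hspa5 slopes were also called for 4 of 8 macrophage genes (median -0.34), 2 of 8 lymphocyte genes (median -0.70) and 1 of 4 plasma cell genes (median -0.74), and none of these was called for Trib3. The lymphocyte and plasma cell counts are near the 17.9% of all genes called negative. In the lists of macrophage, lymphocyte and plasma cell genes, 1, 6 and 1 genes were at 0 in some library. Of the 10 beta cell genes 1 was negative for each anchor, and of the 7 duct genes 1 was positive and 1 negative for Hspa5. The delta cell, endothelial, fibroblast and acinar lists had 0 calls for either. The part of these cells in the members' slopes was not tested, beyond the fit with the acinar level as a covariate, which called 18 of 21 folding and degradation genes and 5 of 7 Atf4 branch genes positive for Hspa5. In that fit 14.5% of all genes were called positive for Hspa5.

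Among the 14 folding genes other than Hspa5, 13 had a positive Hspa5 slope and 0 were called for Trib3. Dnajb9, a co-chaperone that delivers substrates to BiP, had the steepest slope, 0.42 ± 0.03 (SE, edgeR adjusted p = 4.39e-21). It had 110.7 CPM in its lowest library, 79, a median of 247.6 and 498 CPM in its highest, 32. Manf, a secreted ER stress factor, followed at 0.28 ± 0.02 (edgeR adjusted p = 4.39e-21), and its level ran from 95.6 through 177.6 to 256 CPM. These 2 genes had ranks 2 and 3 among all kept genes in their Spearman correlation with Hspa5, at rho 0.836 and 0.809.

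Sdf2l1, a cofactor of BiP and its co-chaperones, and Hyou1, the nucleotide exchange chaperone GRP170, had slopes of 0.21 each, and Dnajb11, another co-chaperone, 0.20. The 4 disulfide isomerase genes Pdia3, Pdia4, Pdia6 and P4hb had slopes of 0.10 to 0.14, and Creld2, a further ER stress-induced gene, 0.13. Calr had 0.08. Dnajc3, a co-chaperone also known as an inhibitor of PERK, had 0.09. Hsp90b1 had 0.07 ± 0.02 (edgeR adjusted p = 0.000723) although it is the second large ER chaperone, and its level ran only from 773 to 1404 CPM. Canx, the membrane-bound lectin chaperone calnexin, was the folding gene not called, with 0.02 ± 0.02 (edgeR adjusted p = 0.375) and a rho with Hspa5 of 0.16. Its level ran from 296 CPM in library 97 through 437 to 549 CPM in library 18.

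Genes with an ERSE match were set beside those without by their likeness to Hspa5. The median rho with Hspa5 was 0.402 over the 8 folding and degradation genes with an ERSE match, from 0.16 for Canx to 0.605 for Syvn1. It was 0.536 over the 10 such genes whose window held none, from -0.005 for Sel1l to 0.836 for Dnajb9. These values are a description of genes measured in the same libraries.

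Pooled over the 95 libraries, Hspa5 and Hsp90b1 had a Spearman rho of 0.42 (two-sided permutation p = 5e-05, adjusted 8.75e-05 over the 14 relations tested) and a Pearson r of 0.40 (permutation p = 5e-05), which was 0.41 without libraries 78 and 79, the farthest from the Hspa5 median. Within libraries numbered 50 or lower rho was 0.556 and within those above 50 it was 0.372. Hspa5 and Sdf2l1 had rho 0.543 and r 0.55 (permutation p = 1e-05 for each, the smallest 100000 resamples can give; adjusted 2.8e-05 for rho), with r 0.50 without libraries 78 and 79, and rho of 0.498 and 0.526 within the lower and higher library numbers. The plots of Dnajb9 and Hsp90b1 against Hspa5 show the tight and the loose relation side by side.

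**Figure D3:**
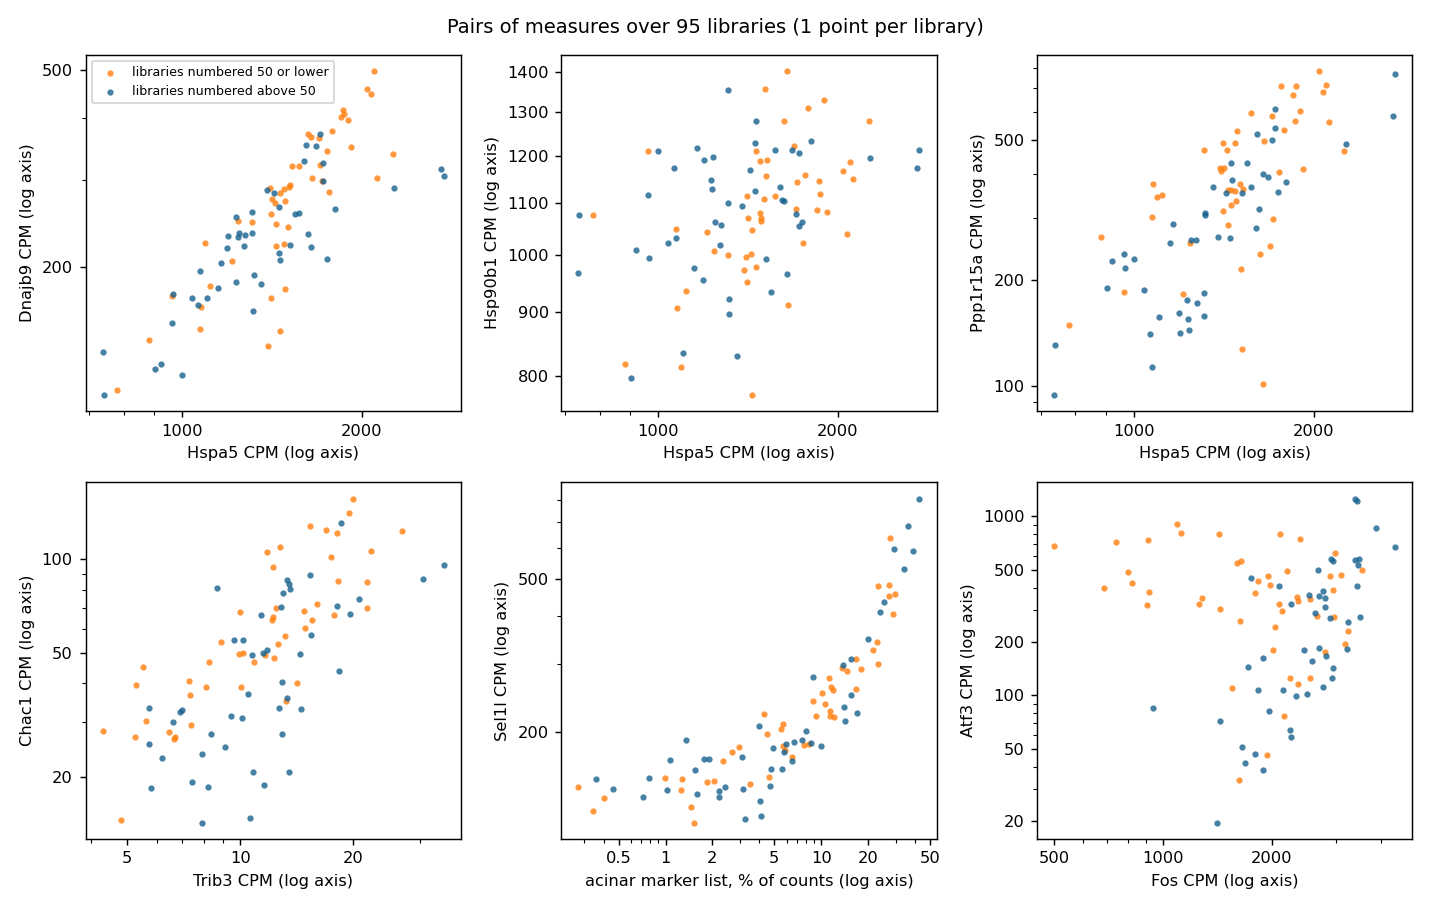
Pairs of measures over the 95 libraries on log axes, 1 point per library, coloured by library number: Dnajb9, Hsp90b1 and Ppp1r15a against Hspa5, Chac1 against Trib3, Sel1l against the share of counts in the acinar list, and Atf3 against Fos, all genes in CPM. Dnajb9 follows Hspa5 closely (rho 0.836), Hsp90b1 loosely (0.42), and Atf3 against Fos has rho 0.73 in libraries numbered above 50 and -0.287 in the others.

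Of the 7 degradation genes, 5 had a positive Hspa5 slope, and Edem1 and Sel1l were not called. Syvn1, the ubiquitin ligase HRD1 of the ER membrane, had 0.19 ± 0.02 (edgeR adjusted p = 4.21e-10), and Derl1 and Derl2, which encode membrane proteins of the export channel, had 0.13 and 0.09. Derl3, of the same Derlin family, had 0.21 ± 0.07 (edgeR adjusted p = 0.0239), which did not pass within libraries numbered 50 or lower (0.09, edgeR adjusted p = 0.573), within those above 50 (0.32, edgeR adjusted p = 0.0567) or without those above 90 (0.13, edgeR adjusted p = 0.242). Herpud1, a stress-induced partner of HRD1, had 0.26 ± 0.04 for Hspa5 and was the folding or degradation gene called for Trib3, at 0.14 ± 0.03 (edgeR adjusted p = 0.00676). Its level ran from 164 CPM in library 78 through 383 to 696 CPM in library 69. Herpud1 is also the member whose promoter stretch held both an ERSE-II and a CARE match. Its relation with Hspa5 had rho 0.595 and r 0.62 (permutation p = 1e-05 each, adjusted 2.8e-05 for rho), r 0.57 without libraries 78 and 79, and rho 0.452 and 0.696 within lower and higher library numbers.

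Sel1l, Derl3 and Edem1 had the steepest slopes of the members on the level of the acinar list. Sel1l encodes the adaptor of HRD1 and Edem1 a lectin that selects misfolded glycoproteins. In a separate fit on the log2 summed acinar level, whose SD was 1.97, Sel1l had a slope of 0.56 ± 0.03 per SD (edgeR adjusted p = 1.77e-31), Derl3 0.51 ± 0.05 (edgeR adjusted p = 3.72e-17) and Edem1 0.36 ± 0.03 (edgeR adjusted p = 1.71e-17). Sel1l had 116.7 CPM in library 46, a median of 188 and 806 CPM in library 54, the library with the highest acinar share. Derl3 ran from 6.72 CPM in library 81 through 18.6 to 67.9 CPM, also in library 54, and Edem1 from 69.3 through 116.3 to 409 CPM, again in library 54. The highest libraries for all 3 were thus the same library.

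Over all members, 10 of 37 were called positive for the acinar level and 8 negative, where 12.7% and 16.2% of all genes were called. Besides those 3 genes and Herpud1, the positive ones were P4hb, Dnajb11, Creld2, Xbp1, Eif2ak3 and Asns. Without the 11 libraries with over 25% acinar counts, 4 members were called positive, Sel1l (0.37), Derl3 (0.32), Edem1 (0.22) and Asns (0.20). In that set 9.53% of all genes were called positive. Over all 95 libraries the negative members were Pdia3 (-0.11), Dnajb9 (-0.14), Ddit3 (-0.23), Derl2 (-0.08), Canx (-0.06), Calr, Hsp90b1 and Pdia4. With DESeq2 size factors the last 3 were not called, with edgeR adjusted p-values from 0.0982 to 0.106. That left 5 negative members, where 13% of all genes were called negative. Of the other cells' markers, 4 of 7 duct genes were called positive and 1 negative for the acinar level, and 3 of 6 endothelial and 2 of 10 beta cell genes negative; their part was not tested.

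Hspa5 itself had no detectable relation with the acinar level: rho was -0.06 (permutation p = 0.571, adjusted 0.571) and r -0.02 (permutation p = 0.834). Within libraries numbered 50 or lower rho was -0.283, and within those above 50 it was 0.006. For Hspa5 and Derl3 rho was 0.26 (permutation p = 0.0114, adjusted 0.0177) and r 0.29 (permutation p = 0.00421), with 0.26 for r without libraries 78 and 79. Within libraries numbered 50 or lower that rho was 0.0824 (adjusted permutation p = 0.577) and within those above 50 it was 0.352. Without libraries numbered above 90 it was 0.20 (adjusted permutation p = 0.103), and without the acinar-rich libraries it was 0.23 (adjusted permutation p = 0.0555). With the acinar level held fixed over all 95 libraries, the partial rho of Hspa5 and Derl3 was 0.443 (adjusted permutation p = 3e-05).

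All 3 translocation genes had positive Hspa5 slopes and 0 were called for Trib3. Ssr1, a subunit of the translocon-associated protein complex, had 0.21 ± 0.02 (edgeR adjusted p = 2.83e-13), Sec61a1, the pore of the translocon, 0.20 ± 0.02 (edgeR adjusted p = 1.31e-12), and Sec61b, its beta subunit, 0.08 ± 0.02 (edgeR adjusted p = 0.000157). Sec61a1 ran from 200.4 CPM through 333 to 472, Ssr1 from 133 through 202 to 326, and Sec61b from 57.4 through 86.1 to 118.3. For Sec61b, 23.5% of its 31-base words also occur in other genes, of which Gm10320 was the closest, so its value is uncertain. The same holds for Hsp90b1, with 12.3% shared and the antisense gene 1810014B01Rik the closest. It also holds for Dnajb9, with 10.8% shared and Gm6568 the closest. Derl1, Sec61a1, Manf, Ddit3 and Eif2ak3 shared 6.78% to 8.60%.

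The sensor genes did not move as 1 set. Xbp1, Atf6 and Eif2ak3 had positive Hspa5 slopes of 0.13, 0.15 and 0.12, while Ern1 had a negative one, -0.13 ± 0.03 (edgeR adjusted p = 0.00174). Ern1 had 87.8 CPM in library 97, a median of 173.7 and 290.5 CPM in library 88, and its rho with Hspa5 was -0.283. Its slope was -0.06 within libraries numbered 50 or lower (edgeR adjusted p = 0.346). Ern1 was also 1 of the 2 members whose Hspa5 slope was called below the Trib3 slope. Its Trib3 slope, 0.07 ± 0.03, was itself not called (edgeR adjusted p = 0.176). Eif2ak3 was the sensor gene called for Trib3, at 0.07 ± 0.02 (edgeR adjusted p = 0.0432), which did not pass within libraries numbered above 50 (0.02, edgeR adjusted p = 0.849).

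Atf6 had its closest member partner in Ssr1, at rho 0.828, ahead of 0.474 with Hspa5. Xbp1 and Hspa5 had rho 0.508 and r 0.54 (permutation p = 1e-05 each, adjusted 2.8e-05 for rho), r 0.48 without libraries 78 and 79, and rho 0.406 and 0.574 within lower and higher library numbers. Gene counts do not separate spliced from unspliced Xbp1 messenger RNA, and they do not measure the activity of any sensor.

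The Atf4 branch was not uniform. Of its 7 genes other than Trib3, 5 had a positive Hspa5 slope (Atf3, Ppp1r15a, Ddit3, Chac1 and Atf4) and 5 a positive Trib3 slope (Chac1, Sesn2, Ddit3, Ppp1r15a and Atf4). Asns was called for neither. Atf3 had the steepest Hspa5 slope of all members, 0.82 ± 0.08 (edgeR adjusted p = 2.4e-13), steeper than that of any folding gene. Its levels also had the widest spread, and its rho with Hspa5 was 0.740, below those of Dnajb9 (0.836) and Manf (0.809). The Trib3 slope of Atf3 was 0.25 ± 0.08 (edgeR adjusted p = 0.0522), which came to 0.0208 with DESeq2 and 0.00779 with limma on the deposited variance-stabilised values.

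Ppp1r15a, the phosphatase subunit GADD34 that restores translation, had an Hspa5 slope of 0.49 ± 0.05 and Ddit3, the transcription factor CHOP, 0.44 ± 0.05 (edgeR adjusted p = 9.65e-14 and 6.7e-12). Ppp1r15a had 94.3 CPM in library 78, a median of 352.8 and 783 CPM in library 28. Ddit3 ran from 16.9 CPM in library 66 through 53.5 to 142.4 CPM in library 29, and Atf4 from 177 CPM in library 97 through 324 to 615 CPM in library 32. Atf4 had slopes of 0.25 ± 0.02 for Hspa5 and 0.13 ± 0.02 for Trib3 (edgeR adjusted p = 1.43e-14 and 0.000219). Its Trib3 slope did not pass within libraries numbered above 50 (0.08, edgeR adjusted p = 0.123), and that of Ppp1r15a did not pass within those numbered 50 or lower (0.16, edgeR adjusted p = 0.15). Ddit3 and Hspa5 had rho 0.686 and r 0.66 (permutation p = 1e-05 each, adjusted 2.8e-05 for rho), r again 0.66 without libraries 78 and 79, and rho 0.583 and 0.725 within lower and higher library numbers.

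Chac1 was the member closest to Trib3, with rho 0.731 and r 0.70 (permutation p = 1e-05 each, adjusted 2.8e-05 for rho), r 0.70 without libraries 11 and 88, and rho 0.828 and 0.677 within lower and higher library numbers. Its Trib3 slope was 0.52 ± 0.05 and its Hspa5 slope 0.38 ± 0.05 (edgeR adjusted p = 3.76e-15 and 3.72e-10). Sesn2, a stress-induced regulator of growth signalling, had a Trib3 slope of 0.25 ± 0.03 (edgeR adjusted p = 2.15e-07) and an Hspa5 slope of -0.05 ± 0.03 (edgeR adjusted p = 0.224). Trib3 itself had 4.30 CPM in library 11, a median of 11.8 and 34.7 CPM in library 88, and Sesn2 ran from 22.5 through 55.3 to 98.5 CPM, highest in library 89. Library 88 had 1318 CPM of Hspa5, below its median, as the plot of levels by library number shows.

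Trib3 with Atf4 had rho 0.406 (permutation p = 4e-05, adjusted 8e-05) and r 0.42 (permutation p = 1e-05), r 0.46 without libraries 11 and 88, and rho 0.554 and 0.405 within lower and higher library numbers. Trib3 with Ddit3 had rho 0.423 and r 0.42 (permutation p = 3e-05 each, adjusted 7e-05 for rho), r 0.43 without those libraries, and rho 0.456 and 0.438 within lower and higher numbers. Trib3 with Asns had rho 0.224 (permutation p = 0.0296, adjusted 0.0414) while r was 0.18 (permutation p = 0.082, adjusted 0.115) and 0.19 without those libraries. Within lower and higher library numbers that rho was 0.278 and 0.19, and neither passed (adjusted permutation p = 0.0716 and 0.215). Trib3 and Hspa5 had rho 0.204 (permutation p = 0.046, adjusted 0.0586) and r 0.14 (permutation p = 0.192), 0.19 without libraries 78 and 79, with rho 0.201 and 0.237 within lower and higher numbers. Trib3 and the acinar level had rho 0.11 (permutation p = 0.288, adjusted 0.31) and r 0.08 (permutation p = 0.424), 0.07 without libraries 11 and 88, with rho 0.0925 and 0.219.

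Asns, asparagine synthetase and a classical Atf4 target, was called for neither anchor in the model of both. Its slopes were -0.08 ± 0.05 for Hspa5 and 0.08 ± 0.05 for Trib3 (edgeR adjusted p = 0.215 and 0.324), although its pooled rho of 0.224 with Trib3 passed. It had 41.5 CPM in library 97, a median of 136.8 and 269 CPM in library 54. Its acinar slope was 0.27 ± 0.04 (edgeR adjusted p = 4.64e-09), and its closest member was Sel1l, at rho 0.755. With Pdia4 it had the lowest rho of all member pairs, -0.58.

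**Figure D4:**
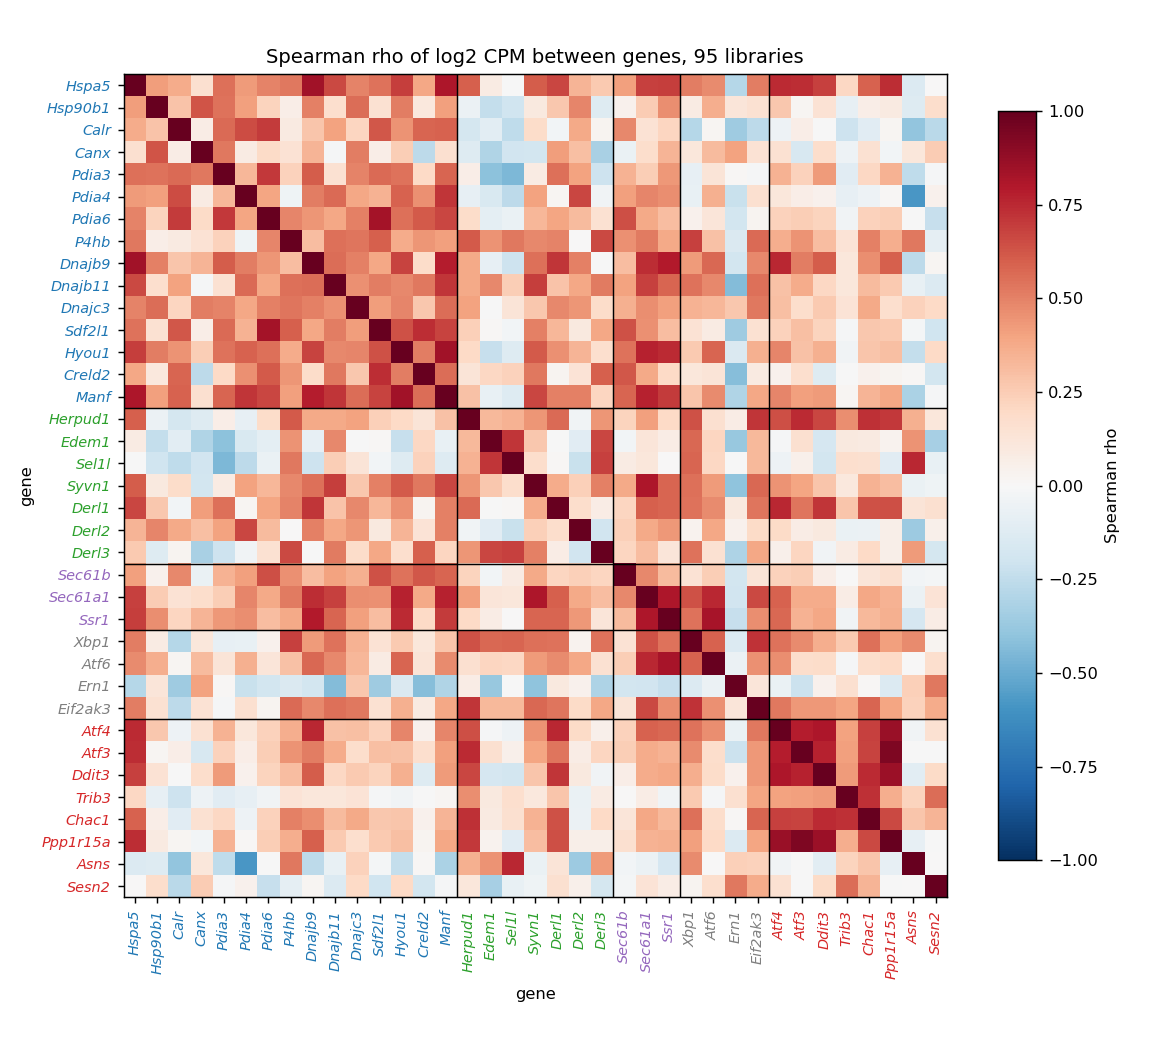
Spearman rho of log2 CPM between each pair of the 37 genes over the 95 libraries, with genes ordered by role and lines between roles. Atf4, Atf3, Ddit3 and Ppp1r15a form a block with a mean rho of 0.835, while Edem1, Sel1l, Derl3 and Asns go together (mean 0.615) across the lines between roles. Both sets were picked after these values were seen.

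Pairwise rho over the libraries put the same divisions side by side, as a description with no test, since all genes share libraries and totals. It averaged 0.444 over the 105 pairs of folding genes, 0.259 over the 21 pairs of degradation genes and 0.415 over the 28 pairs of Atf4 branch genes. Over the 176 pairs of a folding or degradation gene with an Atf4 branch gene it averaged 0.172, from -0.58 to 0.757. Atf4, Atf3, Ddit3 and Ppp1r15a, a set picked after these values were seen, averaged 0.835 among themselves, with Atf3 and Ppp1r15a highest of all member pairs at 0.931. They averaged 0.273 with the folding genes. Trib3, Chac1 and Sesn2, picked likewise, averaged 0.545 among themselves and 0.0785 with the folding genes. Between those sets the mean was 0.392.

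Whether a gene's slope per SD differed between the anchors was tested in the same model. The SD was 0.37 log2 units for Hspa5 and 0.62 for Trib3, so slopes per log2 unit could compare otherwise. The Hspa5 slope exceeded the Trib3 slope in 21 of 35 members and fell below it in 2, where 6.11% and 5.24% of all genes were called. Among the 21 were 11 of 14 folding genes, 3 of 7 degradation genes (Syvn1, Derl1 and Derl2), all 3 translocation genes, Atf6, and Atf4, Atf3 and Ppp1r15a of the Atf4 branch. The 2 whose Hspa5 slope fell below the Trib3 slope were Sesn2, with a difference of -0.30 ± 0.05 (edgeR adjusted p = 1.15e-05), and Ern1, with -0.20 ± 0.05 (edgeR adjusted p = 0.0027). For Ern1 the slope called was the negative one for Hspa5, -0.13, and its Trib3 slope of 0.07 was not called. Dnajb9 had the largest positive difference among the folding genes, 0.43 ± 0.04 (edgeR adjusted p = 1.06e-12). For Chac1 and Ddit3 the slopes did not differ detectably, at -0.15 ± 0.07 and 0.20 ± 0.07 (edgeR adjusted p = 0.16 and 0.0698). Unequal slopes were called for 13 members within libraries numbered 50 or lower and for 15 within those above 50, where 6.95% and 2.32% of all genes were called in either direction.

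The choice of anchors mattered. With Hsp90b1 and Asns in their place, 11 of 20 folding and degradation genes and 1 of 6 Atf4 branch genes were called positive for Hsp90b1, and 7 of 20 and 1 of 6 for Asns, where 20.3% and 21.6% of all genes were called positive. Edem1 and Sel1l were called negative for Hsp90b1, and Calr (-0.07), Pdia4 (-0.14) and Derl2 (-0.06) for Asns, where 21.4% and 25.1% of all genes were. With Hspa5 and Trib3 these were 18 of 21 and 5 of 7, and 1 of 21 and 5 of 7.

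**Figure D5:**
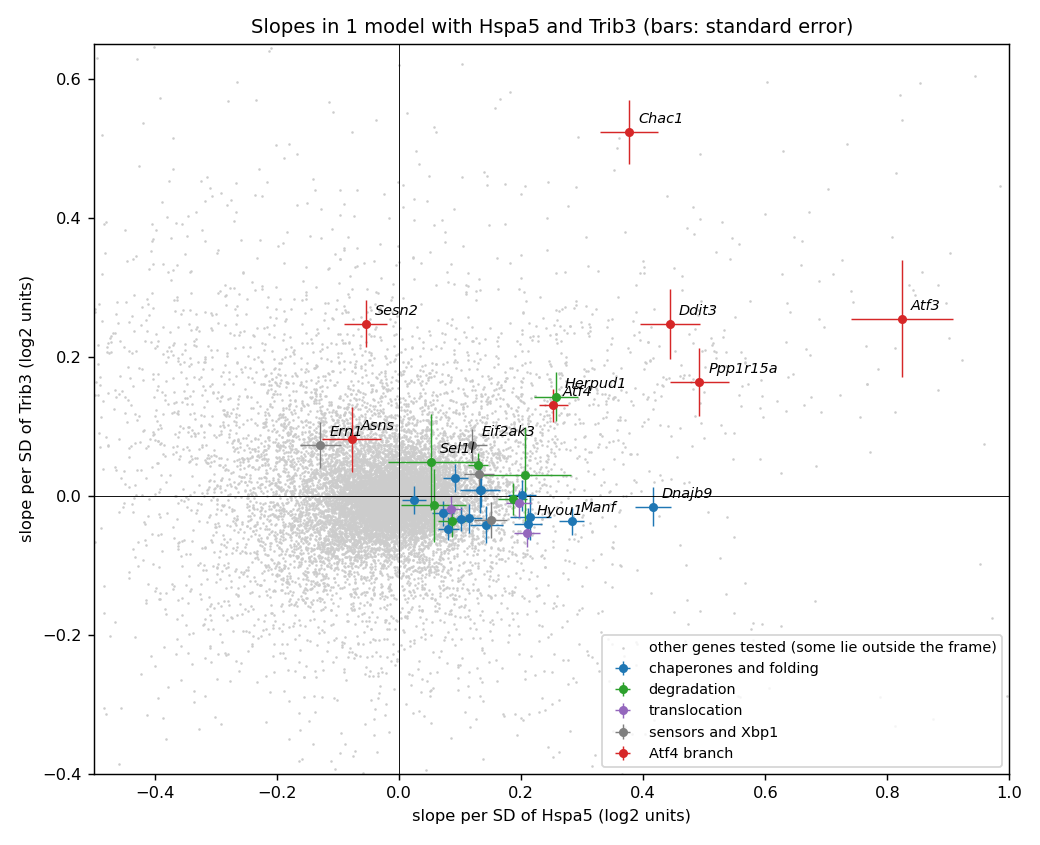
Slope per SD of Trib3 against slope per SD of Hspa5 (log2 units) from 1 model, for the other 35 members, coloured by role with standard errors, over the other genes tested in grey. Folding genes lie to the right near a Trib3 slope of 0, Chac1 is highest (0.52), Atf3 is farthest right (0.82), and Sesn2 lies left of 0 with a Trib3 slope of 0.25.

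Immediate early genes moved with Hspa5 as well: 7 of the 8 had a positive Hspa5 slope, with a median of 0.295, and 0 were called for Trib3. A fit on the log2 summed level of these genes, added after seeing the data, called 13 of 37 members positive and 0 negative, where 7.52% and 14.7% of all genes were called. Per SD of that level (0.51 log2 units), Atf3 had 0.98 ± 0.08, Ppp1r15a 0.54 ± 0.05, Ddit3 0.50 ± 0.06, Chac1 0.31 ± 0.08, Herpud1 0.27 ± 0.04 and Atf4 0.21 ± 0.03, with edgeR adjusted p-values up to 0.00355. In the same fit all 8 lymphocyte genes (median -0.78), 6 of 8 macrophage genes (median -0.41) and 1 of 4 plasma cell genes were called negative, and their part in the members' slopes was not tested. The rest of the 13 were Hspa5, Dnajb9, Hyou1, Manf, Syvn1, Derl1 and Sec61a1, with slopes of 0.07 to 0.20. With this level added to the model of both anchors, 18 of 21 folding and degradation genes and 5 of 7 Atf4 branch genes again had a positive Hspa5 slope. In that model 11.9% of all genes were called positive for Hspa5. The differences between the anchors' slopes then no longer passed for Atf4, Atf3 and Ppp1r15a (edgeR adjusted p = 0.0958, 0.0607 and 0.061). For 2 other members the difference newly passed, and 10.7% of all genes were called in either direction.

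This pattern was not alike over the library numbers. For the immediate early level, 2 members within libraries numbered 50 or lower were called positive, Atf3 and Ppp1r15a, against 15 within those above 50, and without libraries numbered above 90 there were 8. Of all genes, 1.89%, 6.19% and 7.28% were called positive in these 3 sets. Atf3 and Fos had rho 0.126 (permutation p = 0.224, adjusted 0.261) and r 0.04 (permutation p = 0.705), -0.005 without libraries 34 and 78. Within libraries numbered 50 or lower rho was -0.287 (adjusted permutation p = 0.0716), and within those above 50 it was 0.73 (adjusted permutation p = 3.5e-05). The difference between these values was not tested.

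Further genes of each pathway, which are no members, were counted from lists in the model of both anchors. Over all 15766 genes in that model, 13.8% were called positive and 17.9% negative for Hspa5, and 3.05% and 2.61% for Trib3. Of 22 further folding and glycosylation genes, 14 had a positive Hspa5 slope and 0 a negative one, and 0 were called positive and 2 negative for Trib3. Hspa13, an ER-linked member of the Hsp70 family, had 0.38 (edgeR adjusted p = 4.05e-11) and Ero1lb, an oxidase that drives disulfide formation in islets, 0.17 (edgeR adjusted p = 0.000313). Pdia5 and Sil1 had slopes of -0.02 and 0.02 (edgeR adjusted p = 0.606 and 0.773). Of 14 further degradation genes, 11 were positive for Hspa5 and 0 called for Trib3, with Vimp at 0.21 and Edem2 at 0.15 (edgeR adjusted p = 2.79e-19 and 0.0116) and Dnajb2 at 0.03 (edgeR adjusted p = 0.293).

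Of 14 further translocation genes, 11 were positive for Hspa5 and 0 were called for Trib3. Ssr3, another subunit of the translocon-associated complex, had 0.20 (edgeR adjusted p = 2.38e-12), while Sec61g, Srp54a and Sec62 had 0.15, 0.07 and -0.000146 (edgeR adjusted p = 0.342, 0.251 and 0.996). Of 9 further sensors and regulators, 5 were positive and 2 negative for Hspa5, and 0 were called for Trib3. Wfs1, the ER membrane protein mutated in Wolfram syndrome, and Nrbf2 had 0.15 and 0.16 (edgeR adjusted p = 7.8e-07 and 4.35e-09), Nfe2l2 had -0.08 (edgeR adjusted p = 0.019) and Crebrf -0.05 (edgeR adjusted p = 0.198).

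Of 33 further Atf4 targets, 15 had a positive Trib3 slope and 0 a negative one, with a median of 0.13 over the 33. Of all genes, 3.05% and 2.61% were called for Trib3. For Hspa5, 8 were positive and 10 negative, where 13.8% and 17.9% of all genes were called. The Hspa5 slope fell below the Trib3 slope in 11 and exceeded it in 0, where 5.24% and 6.11% of all genes were called. The acinar slope was positive for 17 of the 33 and negative for 0, where 12.7% and 16.2% of all genes were called. The genes at the ends of this list were weakly expressed: Gdf15, a stress hormone with a median of 1.68 CPM, had a Trib3 slope of 0.48 (edgeR adjusted p = 0.00748), and Stc2, a secreted glycoprotein, an Hspa5 slope of 0.51 (edgeR adjusted p = 0.0193). Cth, an enzyme of cysteine synthesis, and Slc7a11, the cystine transporter, were called for neither anchor and had acinar slopes of 1.78 and 0.55 (edgeR adjusted p = 5.12e-33 and 0.00181).

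Among all kept genes that are no members, Arf4, a GTPase of traffic between Golgi and ER, was the most like Hspa5 over the 95 libraries, with rho 0.886, above any member. Vimp, an ER membrane selenoprotein, had 0.807, Sec13 and Sec23b, which encode proteins of the coat of ER-to-Golgi vesicles, 0.788 and 0.778, and Arcn1, of the coat of returning vesicles, 0.776. The 100 genes most like Hspa5 held 11 members. Most like Trib3 were the amino acid transporter genes Slc7a1 and Slc7a5, with rho 0.629 and 0.607, Stk40, which encodes a kinase-like protein, with 0.596, Aars, alanyl-tRNA synthetase, with 0.586, and Fam84b, with 0.574. The 100 genes most like Trib3 held 6 members.

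A few libraries held many of the extremes. Library 97, with the highest macrophage and lymphocyte shares, was the lowest of all libraries for 9 members, namely Canx, P4hb, Dnajc3, Hyou1, Derl1, Xbp1, Ern1, Atf4 and Asns, and in the lowest 5 for 22. Its acinar share was 4.12% and its immediate early share 0.553%. Libraries 78 and 79 were lowest for 5 and 4 members, with immediate early shares of 0.509% and 0.663%. Library 54, with 42.7% of counts in the acinar list, was highest for 6. Library 95 was in the highest 5 for 14 members, with an acinar share of 29.45%. The part of these shares in the members' levels was not tested beyond the fits given above.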

How the data were processed

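The authors deposited estimated counts per gene and variance-stabilised values on a log2-like scale for 95 libraries. 67.7% of the counts were whole to within 1e-06. Per the submitters' processing notes, GRCm38 and DESeq2 were used, without versions. The aligner, the annotation and the use of strand are not given in the sources used here. Counts were rounded and scaled by TMM (factors 0.465 to 1.35). Genes reaching 1 CPM in 10 libraries were fitted with edgeR 4.0.16 (R 4.3.3), by quasi-likelihood tests adjusted by Benjamini-Hochberg over all of them at 0.05. Log2 CPM used a prior count of 2. The 14 relations were tested in numpy 2.4.6 with 100000 resamples each, adjusted over the 14. For Pearson's r, the adjusted permutation p was 2.33e-05 to 0.00655 in the 9 relations that passed and 0.115 to 0.834 in the other 5. 0 relations had clustered values, an empty stretch over 20% of the range. 0 sample columns were left unused.

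Per-kilobase levels used the union exon length of GENCODE M21, and gene coordinates come from the authors' table. Promoters come from RefSeq, and words of 31 bases were compared over GENCODE transcripts. The members, lists and tests were chosen with earlier results of these data known. Genes named are all members, the 5 kept genes most like each anchor, and in each pathway list the 2 with the highest and the 2 with the lowest slope difference, except 1 gene that is not reported here. Alternatives were DESeq2 1.42.0 (size factors, dispersions and test), limma 3.58.1, other totals, filters and prior count, other anchors, the acinar level as a covariate, and sets of libraries. The immediate early level was added after seeing the data. The fits were tested on simulated data.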

Additional observations from a re-analysis of the deposited data

How the results depend on the processing

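Of 2099 slopes of single members recomputed under the alternatives, 1815 kept their direction and their side of the threshold, 116 no longer passed, 51 newly passed, 22 turned sign with a value that passed on either side, and 95 turned sign without passing on either side. The positive Hspa5 calls among folding and degradation genes (18) stayed between 16 and 18 and those of the Atf4 branch at 5, except with Hsp90b1 and Asns as anchors, which gave 11 and 1. Of all genes, 6.18% to 17.5% were called positive in the settings with Hspa5 as anchor, and 20.3% for Hsp90b1 with the other anchors. Positive Trib3 calls among folding and degradation genes (1) were 2 in libraries numbered 50 or lower, without libraries numbered above 90, without the acinar-rich libraries, with the acinar level as a covariate and with DESeq2, 0 in libraries numbered above 50, and 7 with the other anchors, where the Atf4 branch had 1. Of all genes, 4.31% to 5.78% were called positive in the settings that gave 2, 1.48% in libraries numbered above 50, and 21.6% for Asns with the other anchors. Members with unequal slopes (23) were 13 in libraries numbered 50 or lower and 15 above 50, where 6.95% and 2.32% of all genes were called. Positive acinar calls (10) fell to 4 without the acinar-rich libraries, where 9.53% of all genes were called positive. Negative acinar calls (8) were 5 with DESeq2 size factors, with DESeq2, with limma, with totals without acinar and hormone genes, without the 10 libraries with the lowest totals and without the acinar-rich libraries, and 2 in libraries numbered above 50. Of all genes, 7.45% to 14.3% were called negative in the settings that gave 5, and 7.59% in libraries numbered above 50. Positive immediate early calls (13) were 2 and negative ones 1 (Hsp90b1) in libraries numbered 50 or lower, and 8 and 1 (Asns) without libraries numbered above 90. Of all genes, 1.89% were called positive and 2.11% negative in the former set, and 7.28% and 7.2% in the latter. Members with a coefficient of variation above 50% (2) were 5 in libraries numbered above 50. The cause of these changes was not tested.

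With Hsp90b1 and Asns as anchors, slopes for the chaperone anchor turned sign for Herpud1 (-0.017), Edem1 (-0.14), Sel1l (-0.11), Derl3 (-0.085) and Ern1 (0.035), and those for the Atf4 anchor for Canx (0.051), Edem1 (0.19), Ddit3 (-0.094) and Ppp1r15a (-0.052). The difference of slopes turned for P4hb (-0.14), Herpud1 (-0.20), Edem1 (-0.33), Sel1l (-0.60), Derl3 (-0.41), Sec61b (-0.0011), Xbp1 (-0.12) and Sesn2 (0.015). The acinar slope of Dnajb11 was -0.0058 without the acinar-rich libraries. In libraries numbered 50 or lower the immediate early slopes of Dnajb9 (-0.020), Hyou1 (-0.0088), Manf (-0.014) and Sec61a1 (-0.0029) were below 0.

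The relation of Hspa5 with Trib3 (rho 0.204, adjusted permutation p = 0.0586) passed with DESeq2 size factors (0.211), the deposited variance-stabilised values (0.212), totals without acinar and hormone genes (0.212) and the acinar level held fixed (0.212), with adjusted permutation p-values of 0.0461 to 0.0493. Hspa5 with Derl3 did not pass in libraries numbered 50 or lower (0.0824), without those above 90 (0.20) or without the acinar-rich libraries (0.23), and was 0.443 with the acinar level held fixed. Trib3 with Asns did not pass in libraries numbered 50 or lower (0.278) or above 50 (0.19), without those above 90 (0.193), without the acinar-rich libraries (0.22) or with the acinar level held fixed (0.20). Atf3 with Fos was -0.287 in libraries numbered 50 or lower, 0.73 above 50, -0.0187 without those above 90 and -0.73 with the immediate early level, which contains Fos, held fixed. Hspa5 with the acinar level was 0.00567 in libraries numbered above 50. Among the members, Trib3 had the lowest estimated count, 81. No paired analysis was possible because the labels put the libraries in no groups.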
